A study of Mus musculus with 24 samples.

Results

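The transcripts described here belong to 8 genes that make, break down and regulate liver glycogen: Gys2, Gyg, Gbe1, Ugp2, Pygl, Ppp1r3b, Ppp1r3c and Ppp1r3g. They were taken as every non-control array probe carrying one of these names, which gave 11 probes of 56605 and 8 genes of the 23966 tested. The livers came from 24 wild-type C57Bl/6J male mice, 8 weeks old and kept on Safe 04 chow, with 1 array per mouse. In 4 groups of 6, mice ate chow with plain tap water, ate chow with 20% glucose in the water for 24 hours, ate chow with 20% fructose in the water for 24 hours, or had no food for 24 hours. Killing took place at ZT16, that is, 16 hours after lights on, in every group. The comparisons ask how withholding food, and adding either sugar to the drink, changed liver transcripts.

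Glycogen is a branched glucose polymer that the liver fills after meals and empties between them. UDP-glucose is the building block, glycogenin starts the particle, glycogen synthase extends the chains and the branching enzyme adds branch points. Glycogen phosphorylase takes glucose units off, and targeting subunits bring protein phosphatase 1 to the particle, where it activates the synthase and inactivates the phosphorylase.

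All 11 probes were well above background on 24 of 24 arrays, and none was saturated or flagged as an outlier. Levels are log2 intensities minus the array's 75th percentile, so 0 is that percentile and levels of different probes are not set against each other. A gene was called when the limma adjusted p (Benjamini-Hochberg, over all genes) was under 0.05. Each level is that of liver tissue, in which fewer cells of a type and less RNA per cell cannot be told apart.

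Fasting lowered the transcripts of Pygl, Gbe1 and Ugp2 and raised those of Ppp1r3g, Ppp1r3b and Gyg, against fed mice on water. Pygl fell 2.32-fold, Gbe1 2.11-fold and Ugp2 1.47-fold, while Ppp1r3g rose 18.8-fold, Ppp1r3b 1.75-fold and Gyg 1.36-fold. Gys2, the liver glycogen synthase, was not called, and neither was Ppp1r3c. Thus 6 of 8 members were called, 3 higher and 3 lower, where 42.6% of all genes were called, 21.7% higher and 20.9% lower. The fasted and water groups did not overlap for the 6 called members, against 24.3% of all genes. The members' median size of change was 0.78 on the log2 scale, against 0.24 over all genes.

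**Figure D1:**
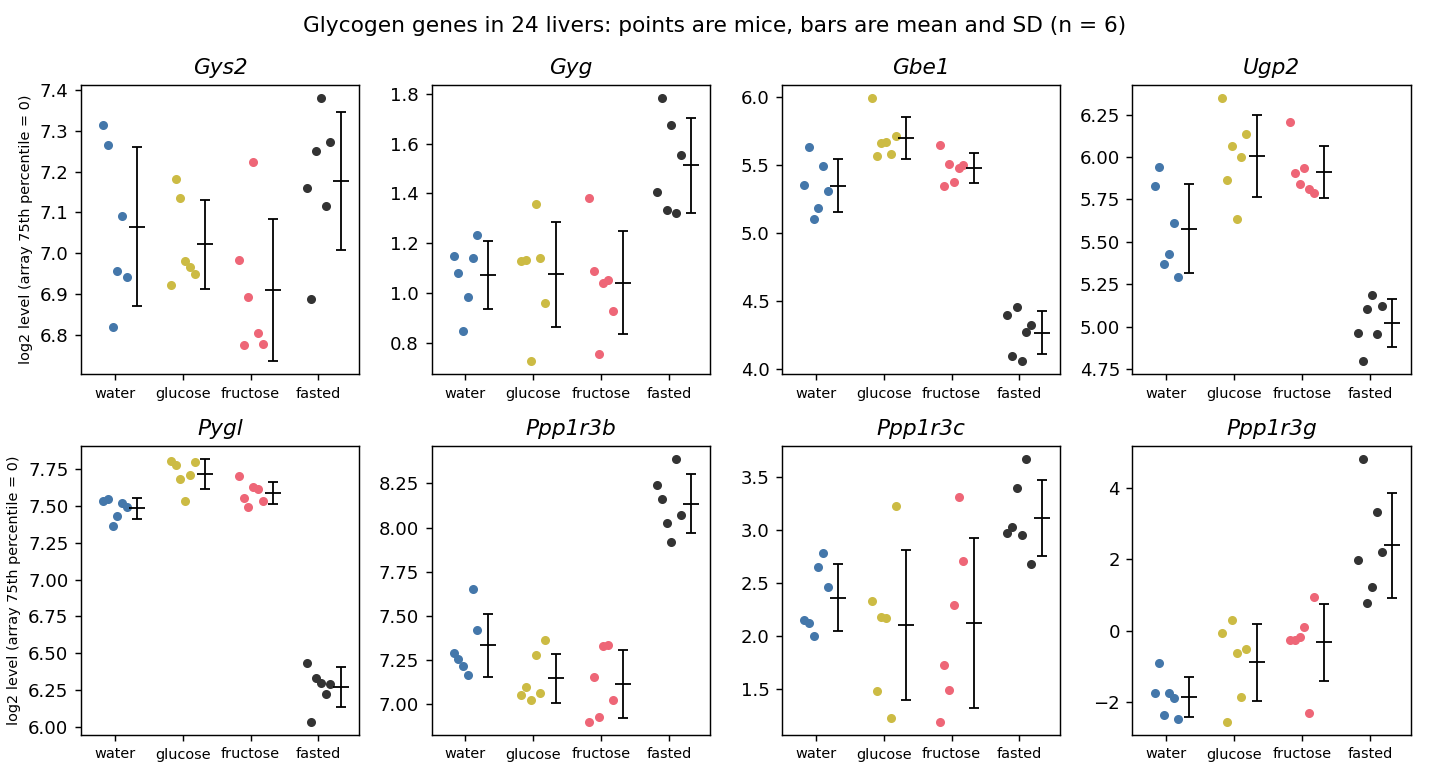
Levels of the 8 genes (log2 intensity, array 75th percentile = 0; each panel has its own axis range) in the 4 groups, with 1 point per mouse and bars for mean and SD (n = 6). Fasted mice lie below all other mice for Gbe1, Ugp2 and Pygl and above all other mice for Ppp1r3b, while the Gys2 groups overlap.

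Gys2 encodes the synthase that lengthens glycogen in liver. Its log2 level ran from 6.82 through a median of 7.02 to 7.32 in water mice and from 6.89 through 7.21 to 7.38 in fasted mice. The groups overlapped over most of their range. The difference was 0.11 ± 0.10 (SE, n = 6 per group; 95% interval -0.09 to 0.31), with a limma adjusted p of 0.377. Its sign turned with the authors' series table (-0.01) and within slide 2 (-0.02).

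Gyg encodes glycogenin, the protein that primes a new glycogen particle. Water mice lay between 0.85 and 1.23 with a median of 1.11, and fasted mice between 1.32 and 1.78 with a median of 1.48. Every fasted mouse was above every water mouse. The limma difference was 0.44 ± 0.11 (SE), with an adjusted p of 0.0019, and the other Gyg probe gave 0.51 ± 0.12 with an adjusted p of 0.000881. Both probes lie on chromosome 3 of mm9, at 20022033 to 20022092 and at 20022461 to 20022520.

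Gbe1 encodes the branching enzyme. Its log2 level was 5.10 to 5.63 in water mice, with a median of 5.33, and 4.06 to 4.46 in fasted mice, with a median of 4.30. All fasted mice were below all fed mice. The difference was -1.08 ± 0.09 (SE), with a limma adjusted p of 2.4e-09. A second probe for the same transcript, 407 bases away, gave -1.04 ± 0.10 with an adjusted p of 1.64e-08.

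The third Gbe1 probe, annotated by the array to another transcript, was not called between fasted and water mice. It lies at chromosome 16, 70361835 to 70361894 on mm9, while the other probes lie at 70569840 to 70569899 and at 70569433 to 70569492. Its levels were -1.33 to 0.61 in water mice and -1.05 to -0.53 in fasted mice, which overlap. The limma fit over all probes gave -0.35 ± 0.22 (SE) and an adjusted p of 0.232. Against glucose mice the same probe was called lower in fasted mice, by -1.14 ± 0.22 with an adjusted p of 0.000211.

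Ugp2 encodes the enzyme that makes UDP-glucose. Water mice lay between 5.30 and 5.94 with a median of 5.52, and fasted mice between 4.80 and 5.19 with a median of 5.03. The groups did not overlap. The difference was -0.56 ± 0.12 (SE), with a limma adjusted p of 0.000445.

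Pygl encodes the liver phosphorylase, which releases glucose units from glycogen. Its level was 7.36 to 7.55 in water mice, with a median of 7.51, and 6.03 to 6.43 in fasted mice, with a median of 6.29. These ranges lie about 1 log2 unit apart. The difference was -1.22 ± 0.06 (SE), with a limma adjusted p of 9.81e-13. The pooled SD of Pygl within groups was 0.10, against a median of 0.20 over all genes.

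Gys2 was also set against Pygl and Gbe1 on the same array. Set to 0 at the mean of the water group, Gys2 minus Pygl was -0.14 to 0.20 in water mice and 1.14 to 1.51 in fasted mice, with a fasted mean of 1.33 ± 0.12 (SD, n = 6). It was -0.28 ± 0.15 in glucose mice and -0.26 ± 0.15 in fructose mice (SD, n = 6 each). Gys2 minus Gbe1 was 1.19 ± 0.21 in fasted mice, -0.39 ± 0.23 in glucose mice and -0.29 ± 0.21 in fructose mice. No test was made of these differences, which show unequal change only.

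**Figure D2:**
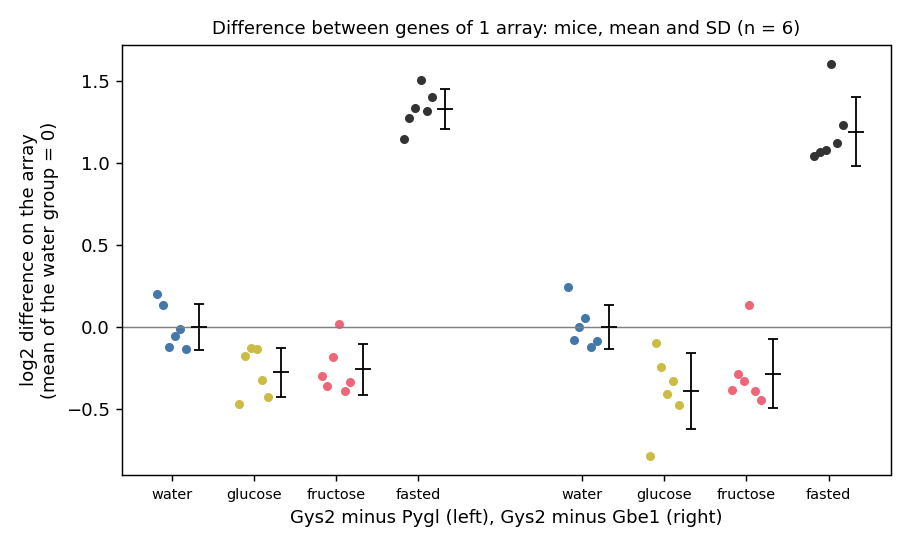
Gys2 minus Pygl (left) and Gys2 minus Gbe1 (right) on each array, in log2 units with the mean of the water group at 0; points are mice and bars are mean and SD (n = 6). Fasted mice lie at 1.04 or more in both, and the glucose mice all lie below 0.

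Ppp1r3b encodes GL, the main glycogen-targeting subunit of phosphatase 1 in liver. Its level was 7.16 to 7.65 in water mice, with a median of 7.27, and 7.92 to 8.39 in fasted mice, with a median of 8.12. Every fasted mouse exceeded every fed mouse. The difference was 0.81 ± 0.10 (SE), with a limma adjusted p of 5.51e-07.

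Ppp1r3c encodes PTG, a targeting subunit found in several tissues. Water mice lay between 2.00 and 2.79 with a median of 2.31, and fasted mice between 2.68 and 3.67 with a median of 3.00, so the ranges met. The difference was 0.76 ± 0.32 (SE; 95% interval 0.09 to 1.42), with a limma adjusted p of 0.0637. The sugar groups spread most: the SD was 0.70 with glucose and 0.80 with fructose, against 0.32 with water and 0.36 with fasting. It was called when the fit held the water and fasted mice alone (adjusted p 0.00522), with normexp background correction (0.0497) and in slide 1 (0.0467). It was also called without glucose replicate 6 (0.0409), fructose replicate 5 (0.0378) or fasted replicate 6 (0.0499). These were 6 of the 41 alternatives that gave a value.

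Ppp1r3g encodes a further targeting subunit of the same family. Its level was -2.48 to -0.89 in water mice, with a median of -1.81, and 0.77 to 4.81 in fasted mice, with a median of 2.10. The groups did not overlap, but the fasted mice spanned about 4 log2 units. The difference was 4.23 ± 0.60 (SE; 95% interval 2.98 to 5.49), with a limma adjusted p of 4.48e-06. Within the 3 slides, each with 2 fasted and 2 water mice, it was 2.63, 6.24 and 3.84. With normexp background correction the difference was 3.41, the lowest over the scalings tried.

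**Figure D3:**
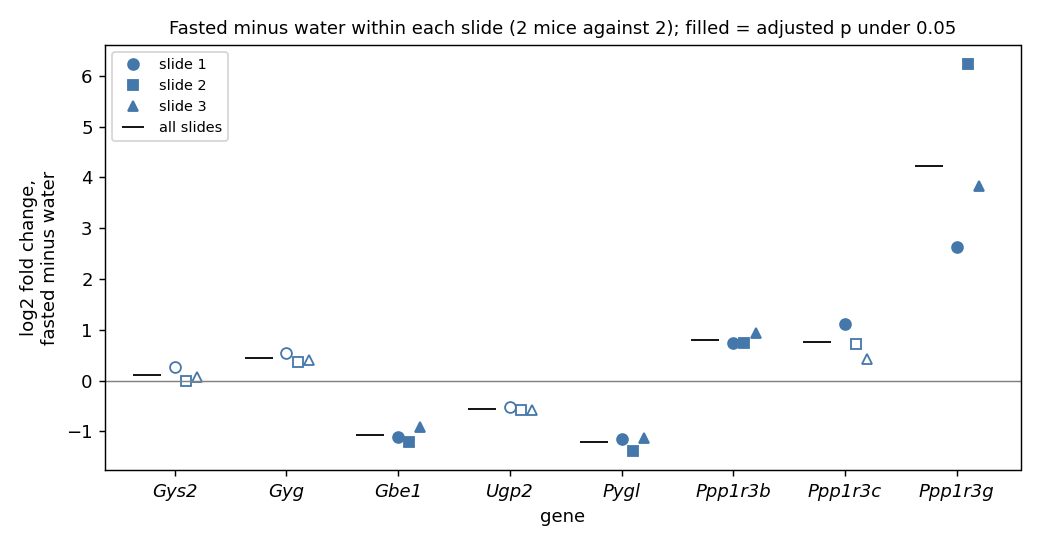
Fasted minus water log2 fold change of each gene over all slides (dash) and within slides 1, 2 and 3 (2 mice against 2 each; filled where the adjusted p was under 0.05). Pygl, Gbe1, Ppp1r3b and Ppp1r3g keep their direction and were called on every slide, whereas Gyg and Ugp2 keep their direction without a call within single slides.

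A few short motifs were searched in the members' promoters. Those of Pygl and Gbe1 are shown because these members fell most with fasting, and those of Ppp1r3c and Ppp1r3g because they are the targeting subunits with a match, although Ppp1r3c was not called against water mice. Promoter sequences from RefSeq (GRCm38.p6) were found for 6 of 8 members, and none was read for Gys2 and Ppp1r3b. The letters searched, on both strands from 250 bases before to 50 after the start, were CACGTG (an E-box), GTAAACA (a FOXO core) and TGACG (the core of a cAMP element). Capitals mark matches, and the 250 bases before the start are printed from 5′ to 3′.
Pygl (chr12:70227684-70227933, minus strand): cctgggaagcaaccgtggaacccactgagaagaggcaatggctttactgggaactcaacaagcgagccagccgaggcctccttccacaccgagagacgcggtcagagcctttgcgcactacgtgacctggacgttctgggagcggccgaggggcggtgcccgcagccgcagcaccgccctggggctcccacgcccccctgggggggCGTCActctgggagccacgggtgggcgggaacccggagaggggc
Gbe1 (chr16:70313699-70313948, plus strand): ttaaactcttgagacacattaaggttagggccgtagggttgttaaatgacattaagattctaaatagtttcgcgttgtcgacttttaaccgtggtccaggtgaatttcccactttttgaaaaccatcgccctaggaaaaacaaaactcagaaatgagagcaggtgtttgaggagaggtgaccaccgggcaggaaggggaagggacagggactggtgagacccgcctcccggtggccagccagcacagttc
Ppp1r3c (chr19:36736605-36736854, minus strand): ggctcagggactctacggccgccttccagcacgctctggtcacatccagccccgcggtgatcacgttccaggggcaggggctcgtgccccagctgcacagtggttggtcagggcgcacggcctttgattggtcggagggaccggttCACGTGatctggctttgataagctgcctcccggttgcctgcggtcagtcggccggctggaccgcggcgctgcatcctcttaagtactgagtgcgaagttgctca
Ppp1r3g (chr13:35967656-35967905, plus strand): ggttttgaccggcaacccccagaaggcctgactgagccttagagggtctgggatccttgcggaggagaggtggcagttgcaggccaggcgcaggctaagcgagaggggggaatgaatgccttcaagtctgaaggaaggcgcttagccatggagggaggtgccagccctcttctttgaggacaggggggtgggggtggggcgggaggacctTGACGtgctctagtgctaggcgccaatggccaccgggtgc

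Counted with the base before the start as -1, TGACG begins at -40 in Ppp1r3g. In Pygl TGACG lies on the opposite strand, and its complement CGTCA on the printed strand begins at -44. CACGTG begins at -104 in Ppp1r3c. Gyg holds CACGTG at 9 and TGACG at 13 after the start, and these matches overlap. No match of the 3 motifs was found in the windows of Gbe1 or Ugp2, and GTAAACA was found in no member. Of 32851 promoters, 7.15% held CACGTG, 3.65% held GTAAACA and 20.8% held TGACG. These are matches of letters only.

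With glucose in the water, no member was called, where 0.83% of all genes were. Gbe1, Pygl and Ugp2 had an unadjusted limma p under 0.05, as did 2743 genes, or 11.4% of those tested. No member's groups were without overlap, against 2.36% of all genes. Gbe1 ran from 5.56 to 5.99 in glucose mice, with a median of 5.67, and its lowest mouse lay below the highest water mouse. Its difference was 0.35 ± 0.09 (SE), with a limma adjusted p of 0.0761. Pygl differed by 0.24 ± 0.06, with an adjusted p of 0.0782, and Ugp2 by 0.43 ± 0.12, with an adjusted p of 0.0906.

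These 3 glucose differences lay near the threshold, and settings moved them across it. All 3 were called in the authors' series table, with adjusted p of 0.0323 for Gbe1, 0.006 for Pygl and 0.0392 for Ugp2. Gbe1 and Pygl were called with quantile normalization (0.0463 and 0.0329) and with array weights (0.0366 and 0.033), and Gbe1 with the mean of its probes (0.0343). Gbe1 (0.0413) and Ugp2 (0.0497) were called without water replicate 2, Ugp2 and Pygl (0.0464 each) without glucose replicate 4, and Pygl (0.0298) without fasted replicate 2. Without fasted replicates 2 and 4 together, Gbe1 (0.0489) and Pygl (0.0364) were called. Of the 41 alternatives that gave a value, Gbe1 and Pygl were called in 6 each and Ugp2 in 3, and each kept its direction in all 41. Within single slides none of the 3 was called (limma adjusted p 0.385 to 0.999). The other 5 members had limma adjusted p of 0.493 or more.

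With fructose in the water, again no member was called, where 0.88% of all genes were, and none was without overlap, against 1.77%. Ugp2, Ppp1r3b and Ppp1r3g had an unadjusted p under 0.05, as did 3809 genes (15.9%). Ugp2 lay between 5.79 and 6.20 in fructose mice, with a median of 5.87, and overlapped the water mice. Its difference was 0.34 ± 0.12 (SE), with a limma adjusted p of 0.157. Ppp1r3g ran from -2.31 to 0.94, with a median of -0.21, and its difference was 1.52 ± 0.60 with an adjusted p of 0.207. Ppp1r3b was at -0.22 ± 0.10, with an adjusted p of 0.271.

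Fructose and glucose mice were not told apart by any gene in the limma fit: 0 of 23966 genes, or 0%, were called, while 1869 (7.8%) had an unadjusted p under 0.05. Among members, Gbe1 (-0.22, 95% interval -0.41 to -0.03) and Pygl (-0.13, -0.26 to -0.001) were lower with fructose at an unadjusted p under 0.05, with adjusted p of 0.589 and 0.634. No member was without overlap, against 0.647% of all genes. The intervals of the other members were widest for Ppp1r3g, from -0.69 to 1.81.

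**Figure D4:**
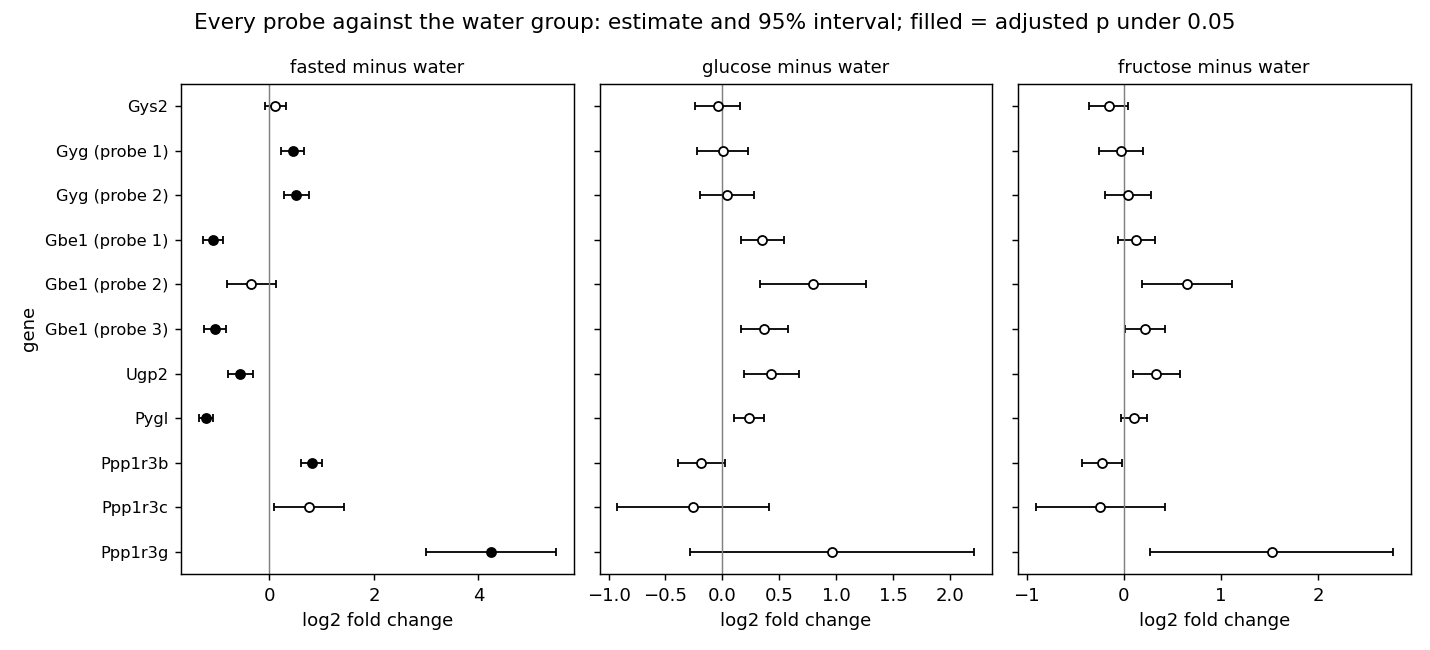
Log2 fold change with its 95% interval for each of the 11 probes in fasted, glucose and fructose mice against water mice; filled points have an adjusted p under 0.05, and the panels have different axis ranges. Filled points appear only with fasting, where Gbe1 probe 2 is the one for the other annotated transcript.

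Fasted mice were also set against each sugar group. Against glucose mice 7 of 8 members were called, 4 higher and 3 lower, where 44.6% of all genes were, 22.6% higher and 21.9% lower. Groups did not overlap for 5 members, against 25.8% of all genes. Against fructose mice all 8 were called, 5 higher and 3 lower, where 45.3% of all genes were, 23.4% higher and 21.9% lower, and 4 did not overlap, against 23.6%. These comparisons share the fasted mice with each other and with the comparison against water. Of 7 hepatocyte markers, 6 were called higher in fasted than in fructose mice. Against glucose mice 4 were called higher and 1 lower. The markers' part in the members' results was not tested.

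Pygl was 2.73-fold lower in fasted than in glucose mice and 2.5-fold lower than in fructose mice. Gbe1 was 2.69-fold and 2.31-fold lower, and Ugp2 1.98-fold and 1.86-fold lower. Ppp1r3g was 9.65-fold and 6.56-fold higher, and Ppp1r3b 1.99-fold and 2.04-fold higher. Ppp1r3c was called in both, at 2.02-fold (limma adjusted p 0.013) and 1.99-fold (0.0144), but its log2 difference within slides 1, 2 and 3 was 1.82, 1.18 and 0.04 against glucose mice and 1.28, 1.13 and 0.57 against fructose mice, with a call in slide 1 only. Within slide 1 Ppp1r3g was 1.04 above fructose mice (adjusted p 0.199), against 3.71 and 3.39 in slides 2 and 3. Gyg was not called within any single slide against either sugar (adjusted p 0.0543 to 0.281). Gys2 was called against fructose mice alone, at 1.20-fold with an adjusted p of 0.025. That call was lost with median scaling (0.0765), quantile normalization (0.0604) and the authors' series table (0.249), and without fasted replicate 4 (0.0663) or fructose replicate 2 (0.0565), 5 (0.054) or 6 (0.0575). It was also lost within each slide (0.401, 0.306 and 0.188).

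The order of group means was fasted, water, fructose, glucose from low to high for Gbe1, Ugp2 and Pygl. In that order the step from fasted to water was called for all 3, and no step among the fed groups was. Ppp1r3g ran from water through glucose and fructose to fasted, and its step from fructose to fasted was the one called.

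The genes whose 4 centred group means were closest to a member's are given as a description, over 13780 candidate genes well above background on all arrays. Pygl was closest to Idua, Tacr2 and Btnl10, at a root mean square distance of 0.025 to 0.028 log2 units, and Gbe1 to Nalcn, Mogat2 and Ly96, at 0.035 to 0.037. Ppp1r3b was closest to Dlst, Suox and Mpzl3, at 0.012 to 0.019, and Ppp1r3c to Slc6a12, Dennd4a and Spag7, at 0.013 to 0.019. For Ppp1r3g the nearest were Egr1, Gadd45b and Defb1, at 0.449 to 0.465. Distances are in log2 units and are not scaled to the size of a gene's changes, which were largest for Ppp1r3g. They lie below the SE of the group differences, 0.60 for Ppp1r3g and 0.32 for Ppp1r3c, so how close a neighbour is was not resolved.

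Other genes of glycogen and glucose handling, in 7 lists, were measured for 43 of 47 entries. With fasting 16 of the 43 were called higher and 11 lower, where 21.7% of all genes were called higher and 20.9% lower. Of 5 genes for phosphorylase kinase subunits, Phka1 fell 1.48-fold, Phka2 rose 1.44-fold (its 4 probes from 0.09 to 0.53 on the log2 scale) and the others were not called. Of 3 measured isoenzymes of other tissues, brain phosphorylase Pygb fell 1.29-fold and the others were not called.

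Among phosphatase genes, the catalytic subunits Ppp1cc, Ppp1cb and Ppp1ca rose 1.54-fold, 1.27-fold and 1.12-fold, and the inhibitor Ppp1r1b fell 1.29-fold (its 2 probes at -0.37 and -0.08), of 7 measured. Ppp1r3d and Ppp1r3e, the other targeting subunits measured, were not called, at -0.01 and -0.16 on the log2 scale. The 2 probes of Ppp1r3e were at -0.82 and -0.16. With median scaling the calls of Ppp1ca (adjusted p 0.133) and Ppp1r1b (0.0507) were lost. Of 11 kinase genes 4 rose and 4 fell, where 21.7% of all genes were called higher and 20.9% lower. Gsk3b, a glycogen synthase kinase, rose 1.17-fold (its 4 probes from -0.10 to 0.42 on the log2 scale). Its call was lost with median scaling (0.0695), quantile normalization (0.0558) and the authors' series table (0.0991). The call of Prkacb (its 2 probes at -0.28 and 0.13) was lost under 5 of the 6 other scalings, with adjusted p of 0.0542 to 0.201. Gsk3a, the other listed glycogen synthase kinase, rose 1.17-fold (limma adjusted p 0.0023, its 2 probes at 0.23 and 0.28). Also called among the kinase genes were the AMP-activated kinase subunits Prkaa2 (1.58-fold lower) and Prkag2 (1.38-fold higher). So were Akt1 (1.34-fold lower, its 3 probes from -0.52 to 0.02 on the log2 scale) and the protein kinase A subunit Prkaca (1.21-fold lower). Of 5 genes for laforin, malin and lysosomal glycogen, Gabarapl1 rose 2.31-fold, the lysosomal glucosidase Gaa rose 1.67-fold and malin, Nhlrc1, fell 1.52-fold.

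Of 7 genes listed under glucose phosphates and transport, 4 rose and 2 fell with fasting, against the same 21.7% and 20.9% of all genes. G6pc, which frees glucose from glucose 6-phosphate, rose 2.24-fold, Pgm3 rose 2.04-fold and the glucose transporter Slc2a2 fell 1.83-fold. Slc37a4 rose 1.35-fold (its 2 probes at 0.13 and 0.43 on the log2 scale). Of 5 measured genes listed with the use of UDP-glucose, Uggt1 fell 2.52-fold, Galk1 rose 1.45-fold and Galt rose 1.24-fold.

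In the fed comparisons 1 of these 43 genes was called with glucose, 2 with fructose and 0 between the sugars, where 0.83%, 0.88% and 0% of all genes were. Gckr rose 1.26-fold with glucose (limma adjusted p 0.0154). With fructose Nhlrc1 fell 1.47-fold (0.0323), and Stbd1, a glycogen-binding protein, rose 1.31-fold (0.0452), though its 3 probes ran from 0.06 to 0.48. With median scaling all 3 calls were lost, at adjusted p of 0.142, 0.0749 and 0.109.

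**Figure D5:**
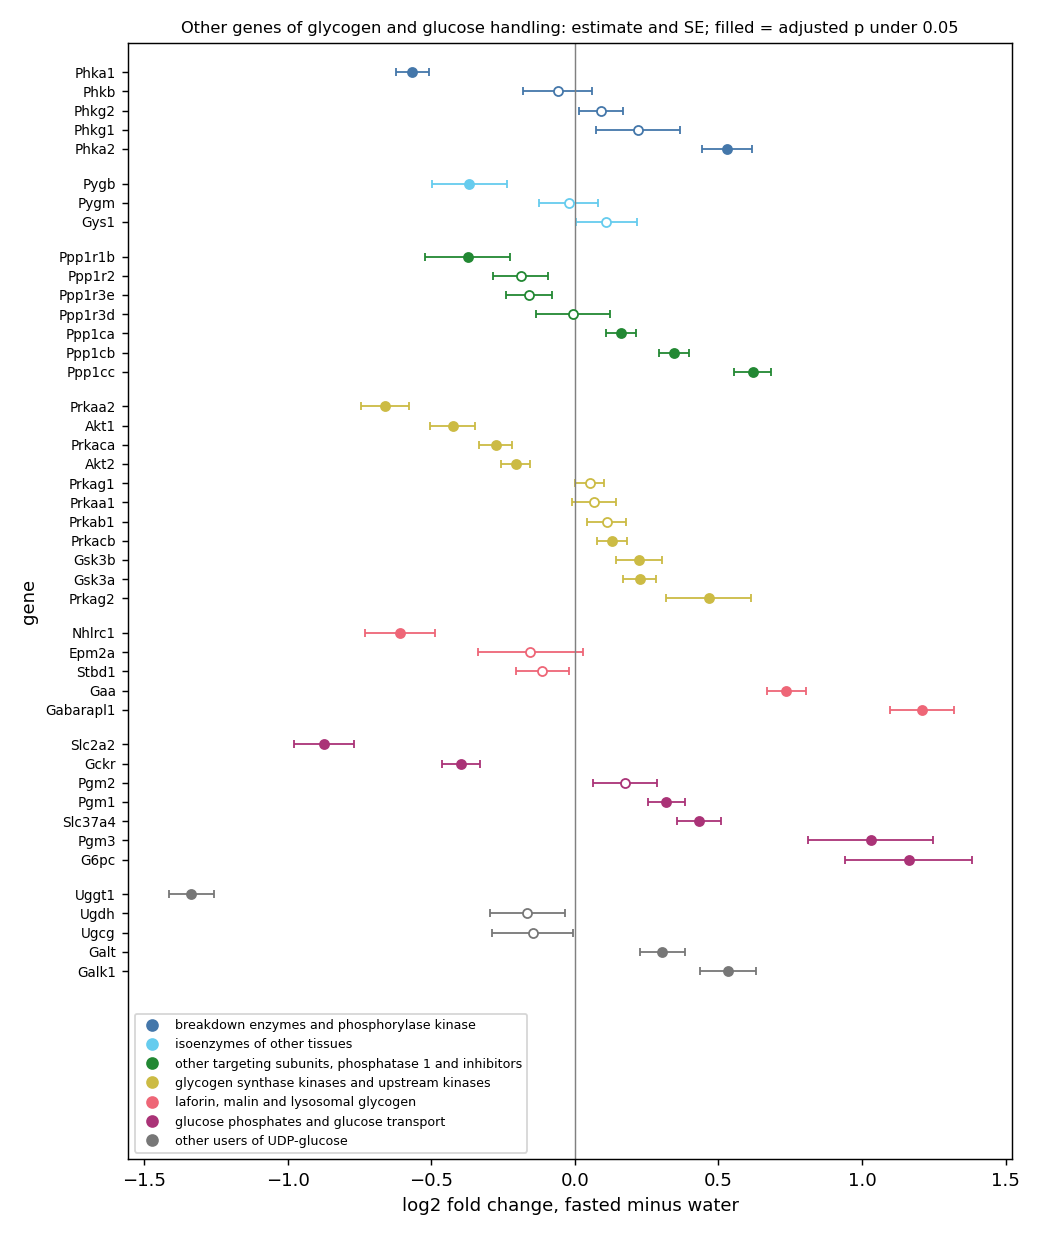
Log2 fold change, fasted minus water, with its SE for 43 other genes of glycogen and glucose handling, coloured by list; filled points have an adjusted p under 0.05. Uggt1, at -1.34, and Gabarapl1, at 1.21, lie farthest from 0 on either side among the genes shown.

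The hepatocyte markers were present, with 7 of 7 well above background on all arrays and a summed level (on the linear scale, in units of the array's 75th percentile) of 5280 to 6340 in water mice and 5760 to 6370 in fasted mice. It was 5130 to 5460 in glucose mice and 4810 to 5280 in fructose mice, both below the fasted range. The glucose range overlapped the water range, and the fructose range reached only the lowest water value. With each sugar 1 of the 7 was called lower than in water mice and 0 higher. Over all genes 0.421% were called lower with glucose and 0.38% with fructose. Against water mice 2 of the 7 rose with fasting, Tat (1.28 on the log2 scale) and Cps1 (1.09), and 1 fell, Ttr (-0.23). Alb, Apoa1, Serpina1a and Cyp2e1 were not called there. Against glucose mice 4 rose and 1 fell, and against fructose mice 6 rose and 0 fell. Of 5 stellate cell markers 3 fell with fasting, with summed levels of 9.39 to 12 in water mice and 5.49 to 8.24 in fasted mice. Of 5 cholangiocyte markers 3 also fell, from 7 to 11.3 in water mice to 3.53 to 9.48. For 4 measured neutrophil markers the sum was 2.43 to 3.55 in water mice, and 24.2 and 21.5 in fasted replicates 2 and 4 against 1.90 to 5.20 in the other fasted mice. Ppp1r3g was at 4.81 and 1.22 in those mice, and without them its difference was 3.92 with a limma adjusted p of 1.59e-05. Without them Pygl (-1.16), Gbe1 (-0.98), Ugp2 (-0.54), Ppp1r3b (0.85) and Gyg (0.33) were still called against water mice. In the other lists, 2 of 5 adipocyte, 2 of 5 macrophage and 3 of 5 endothelial markers rose against water mice. There 1 endothelial marker and 1 of 3 measured red cell markers fell, and 0 of 4 measured skeletal muscle markers were called. Over all genes 21.7% were called higher and 20.9% lower. Adipoq, 1 of the adipocyte markers that rose, was well above background on only 7 of 24 arrays. The part of other cell types in the remaining results was not tested.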

How the data were processed

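Liver RNA was hybridised to 1-colour Agilent mouse arrays, 24 in all on 3 slides, with 2 mice of each group per slide. Per the file headers, Agilent Feature Extraction 10.10.1.1 produced the deposited intensities, which were background-subtracted and not normalized between arrays; probe positions are mm9. A further deposited matrix holds log2 values for 35967 probes. How the authors normalized these log2 values is not given in the sources used here (column medians 7.3834 to 7.3902), and they served as an alternative, called the authors' series table.

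Control spots and spots flagged as outliers were dropped, spots of a probe were averaged on the log2 scale, and the array's 75th percentile over probes was subtracted. This definition was settled after results under 2 others, with the percentile taken over spots, had been seen; it was chosen because it follows an earlier processing of these data and gave the same counts, so that agreement supports nothing. Probes well above background on at least 6 of 24 arrays, with a value on at least 20, were kept, and a gene is its brightest kept probe (23966 genes). Names came from RefSeq tables (GRCm38.p6). One fit of group means over all arrays was made with limma 3.58.1 under R 4.3.3, with eBayes and Benjamini-Hochberg adjustment within each of 6 comparisons, and was tested on simulated data. Arrays give no counts, so their number limits precision.

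Members, gene lists, motifs and tests were chosen with earlier results of these data known. From each list, up to 4 genes called with fasting and of largest change, and any called between fed groups, are named. Listed genes whose fasting call against water mice was lost under another scaling are named too, as are Gsk3a, Ppp1r3d and Ppp1r3e. Some listed genes are not reported here. The planned comparison of protein sequences was not run. Beside the main setting 42 others were run, of which 24 leave out 1 mouse and 3 were added after results were seen.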

Additional observations from a re-analysis of the deposited data

Results flagged for a closer look

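In 3 of 32 sets of 6 mice (8 genes in 4 groups), 1 mouse stood apart from the others by Dixon's criterion, which chance meets in about 1 of 20 sets. Gbe1 in glucose replicate 1 was at 5.99, with the next mouse at 5.71. Ugp2 in fructose replicate 1 was at 6.20, with the next at 5.94. Ppp1r3g in fructose replicate 5 was at -2.31, with the next at -0.27.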

How the results depend on the processing

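The called fasting differences of Pygl, Gbe1, Ppp1r3b and Ppp1r3g against water mice kept their direction and call in all 41 alternatives that gave a value; Gyg and Ugp2 kept their direction in 41 and lost the call within each slide alone. The number of genes called with fasting against water was 10214 (5007 higher, 5207 lower) with the percentile over all spots and 10220 (4964 higher, 5256 lower) over spots without outlier flags, against 10211 (5195 higher, 5016 lower) as reported, so which direction had more calls depends on that choice, made after these results were seen. Members' calls were the same under all 3 definitions.

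Within slides 1, 2 and 3 the genes called were 4196, 4125 and 4128 for fasted minus water, 5125, 4422 and 4147 for fasted minus glucose, 4513, 4486 and 4561 for fasted minus fructose, and 0 in each for glucose and for fructose minus water. For glucose minus water, 199 genes became 90 with median scaling, 120 with no filter, 304 with only the 2 groups compared and 514 with array weights. For fructose minus water, 211 became 75 with median scaling, 549 with normexp, 367 in the authors' series table, 79 with no filter, 74 with only the 2 groups compared, 379 with array weights and 411 without the 2 fasted mice high in neutrophil markers. For fructose minus glucose, 0 became 4 with normexp, 1 with no filter, 1 with the strict filter, 2 with the mean of a gene's probes and 6 with array weights.

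Leaving out 1 mouse gave 9528 to 10308 genes for fasted minus water, 9924 to 10751 for fasted minus glucose, 10079 to 10854 for fasted minus fructose, 107 (without water replicate 4) to 290 (without fasted replicate 2) for glucose minus water, 65 (without water replicate 4) to 446 (without fasted replicate 2) for fructose minus water, and 0 to 3 for fructose minus glucose. The count moved over 1.5 times for glucose minus water without water replicates 2, 4 or 5 or glucose replicates 1, 2, 4 or 6, and for fructose minus water without water replicates 1, 2, 4 or 6, glucose replicate 4, fructose replicates 1, 3, 4 or 6 or fasted replicate 2. With the replicate number as a block the counts were 10168, 170, 167, 0, 10669 and 10864 in the order fasted, glucose and fructose minus water, fructose minus glucose, fasted minus glucose and fasted minus fructose; no member's call changed. The numbers are not known to pair the mice. Same-numbered mice of different groups had a mean correlation of deviations of 0.0335, with 9 of 36 pairs above 0.1. For other-numbered mice of different groups the mean was -0.00674, with 25 of 180 pairs above 0.1. Of 24 mice, 8 matched their own number best. Same-numbered mice share a slide in part, so number and slide were not told apart.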
